A study of Mus musculus with 5 samples.

Results

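The nonclassical class I genes H2-T3, H2-T22, H2-T23, H2-Q4, H2-Q7, H2-M3 and Cd1d1, 7 of 18767 genes counted, were followed in 10275 single immune cells from mouse thyroid. The genes were chosen by name, with their levels already seen: H2-T3 was taken up because it led cluster 5 of the deposited clustering, where it ranked the fifth by fold, at 15.0 times its level in all other cells. Levels by cluster are therefore given as a description with no test. The cells were live CD45+ cells sorted from thyroids of male and female NOD.WT mice, a strain prone to autoimmunity. Treatment began at an age of 4 to 6 weeks and was given into the peritoneum 2 times a week for 4 weeks. The treated group received antibodies to CTLA-4 (clone 9D9) and to PD-1 (clone RPM1-14) at 10 mg/kg per dose, a combined immune checkpoint inhibition (ICI) that releases T cells from inhibitory signals. The control group received isotype antibodies (clones 2A3 and MPC11). Per the labels there were 16 ICI mice and 10 isotype mice. The data are 4 ICI libraries and 1 isotype library of 5′ transcript counts, and the number and sex of the mice behind each library are not stated in the labels.

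Class I molecules are surface proteins that pair a heavy chain with the light chain β2-microglobulin, the product of B2m. The classical members H2-K1 and H2-D1 show peptides to CD8 T cells, whereas the nonclassical members vary little between individuals and present narrower sets of ligands. H2-T3 encodes the thymus leukemia antigen, which binds the CD8α homodimer and is known from immature cortical thymocytes and gut epithelium. H2-T22 is recognised directly by a subset of gamma-delta T cells. H2-T23 encodes Qa-1, which shows leader peptides of other class I chains to the CD94 and NKG2 receptors of natural killer cells. H2-Q7 encodes Qa-2 and H2-Q4 encodes Qb-1, both of the Q region. H2-M3 presents N-formylated peptides of bacterial or mitochondrial origin, and Cd1d1 presents lipids to natural killer T cells, which are selected on thymocytes.

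Of the 7 genes, 6 lie on chromosome 17 of GRCm38: H2-Q4 at chr17:35379617-35385290, H2-Q7 at chr17:35439155-35443773 and H2-M3 at chr17:37270220-37274484 on the plus strand, and H2-T23 at chr17:36029773-36032855, H2-T22 at chr17:36037128-36042747 and H2-T3 at chr17:36185572-36190287 on the minus strand. Cd1d1 lies at chr3:86995834-86999441 on the minus strand. All are protein-coding genes in GENCODE. The RefSeq promoter table (GRCm38.p6), with 250 bases before to 50 after each start site, held 6 of the 7. Stretches upstream of every GENCODE transcript are shown for 4 genes: H2-T3 and H2-T22, which were high in the same clusters, and H2-Q4 and H2-Q7, which shared another pattern. They run 5′ to 3′ on the gene's own strand, from chr17:36190288-36190401, chr17:36042748-36042992, chr17:35379367-35379616 and chr17:35438905-35439154, and capitals mark matches to the interferon response core or the CCAAT box.
H2-T3: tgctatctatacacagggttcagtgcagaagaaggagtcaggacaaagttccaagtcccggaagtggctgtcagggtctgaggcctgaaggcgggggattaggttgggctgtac
H2-T22: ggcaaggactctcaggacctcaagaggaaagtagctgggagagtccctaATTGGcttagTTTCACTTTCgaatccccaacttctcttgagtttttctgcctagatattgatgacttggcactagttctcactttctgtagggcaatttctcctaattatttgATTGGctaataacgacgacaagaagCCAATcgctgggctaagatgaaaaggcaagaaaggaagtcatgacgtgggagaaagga
H2-Q4: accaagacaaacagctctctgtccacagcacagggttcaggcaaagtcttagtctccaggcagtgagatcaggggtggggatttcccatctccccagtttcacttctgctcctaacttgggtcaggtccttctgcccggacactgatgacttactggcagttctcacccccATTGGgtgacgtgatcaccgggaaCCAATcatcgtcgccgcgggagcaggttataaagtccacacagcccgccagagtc
H2-Q7: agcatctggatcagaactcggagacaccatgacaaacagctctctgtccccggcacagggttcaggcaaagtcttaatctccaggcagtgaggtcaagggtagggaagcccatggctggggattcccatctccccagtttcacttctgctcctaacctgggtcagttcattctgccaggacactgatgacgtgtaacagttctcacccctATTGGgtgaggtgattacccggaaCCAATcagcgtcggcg

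The whole windows were searched on both strands for 4 motifs: the interferon response core GAAANNGAAA, the CCAAT box CCAAT, the cAMP response core TGACG and the E box CAGCTG. Of 32851 promoters of the same length, 3.44% held the first, 37.4% the second, 20.8% the third and 16.3% the fourth. The H2-T22 window had 1 interferon response core, 191 bases before its start site, with 3 CCAAT boxes and 1 TGACG. The H2-T23 window had 1 interferon response core 124 bases before its start site and 1 CCAAT box 52 bases before it. That RefSeq start site lies 154 bases inside the gene as GENCODE draws it, so both matches lie inside the gene. H2-Q4 had 2 CCAAT boxes and 2 TGACG, H2-Q7 had 2 and 1, and H2-M3 had 3 and 1. None of these 5 held the E box. The H2-T3 window held none of the 4, although its RefSeq start site lies 136 bases inside the gene as GENCODE draws it, so that the window is not the stretch before the longest transcript. The interferon response core was not found in the windows of H2-Q4, H2-Q7 and H2-M3. Nor was it found in those of the classical genes H2-K1 and H2-D1, whereas B2m had 1. A match is an exact run of letters and not a measured site, and the search would miss a variant of the core.

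The libraries differed in size and in other respects. They held 1163 to 5018 cells and 3858251 to 32296759 UMIs (unique molecules counted), with a median of 1753 to 4321 UMIs per cell. Levels are CPM, the UMIs of a gene per 1000000 UMIs of the library or of the cluster within it, from at least 20 cells unless stated. ICI 2 and ICI 3 shared 140 cell barcodes, against at most 12 for any other pair of barcode sets, so some of their cells may not be independent. ICI 4 resembled isotype more than it did ICI 1 to 3 in some respects: the red cell globin Hbb-bs had 26385 UMIs in ICI 4, 3218 in isotype and 0 in the other libraries. Xist, expressed from the inactive X chromosome of females, stood at 578, 159 and 152 CPM in ICI 1 to 3, with 4 UMIs in ICI 4 and none in isotype. The Y-linked Eif2s3y was found in all 5 libraries, at 22.6, 66.1 and 61.2 CPM in the first 3 and at 95.0 and 94.3 in ICI 4 and isotype. Ptprc, the gene of CD45, was found in 100% of cells in ICI 4 and isotype, and in 92.3%, 84.2% and 82.1% in ICI 1 to 3. A difference of ICI 1 to 3 from isotype therefore cannot be told apart from one of sex or of the other traits in which these libraries differ. Results are given with and without these libraries where they differ. Nothing in the labels says that the libraries came from separate mice, so p-values measure the spread between libraries, which may be technical.

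H2-T3 was high in clusters 5 and 11 and low elsewhere. Cluster 5 had 8 of 10 thymocyte markers and 10 of 10 cycling markers at 1.5-fold or more over all other cells, with 3 of the cycling markers among its top 10 genes by fold. Cluster 11 had 8 of 10 thymocyte markers raised and 0 among its top 10. In cluster 5, H2-T3 stood at 831 CPM in ICI 1, 905 in ICI 4 and 713 in isotype, but at 30.8 in ICI 3 (25 cells) and 40.4 in ICI 2 (18 cells). ICI 1, ICI 4 and isotype were thus all high and ICI 2 and ICI 3 low, and ICI and isotype overlapped. In cluster 11 it stood at 1345 CPM in ICI 1 (21 cells), 807 in ICI 4 and 456 in isotype. ICI 2 and ICI 3 had 2 cells and 1 cell there.

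Everywhere else H2-T3 was at or below 179 CPM. The mean over libraries was 869 ± 448 (SD, n = 3) in cluster 11 and 620 ± 401 (n = 4) in cluster 5, followed by 80.4 ± 45.3 (n = 2) in cluster 9, a cluster led by the heat shock gene Hspa1a. The order of clusters 11 and 5 is not fixed: cluster 11 was higher in ICI 1, and cluster 5 was higher in ICI 4 and isotype. Cluster 2, led by Itm2a, Ccr9 and Tox with 4 of 10 thymocyte markers raised, had 26.0, 43.6 and 79.7 CPM in ICI 1, ICI 4 and isotype. It had 0 UMIs in ICI 2 and ICI 3, where 3 UMIs would have been 88.8 and 138 CPM. Type 2 innate lymphoid-like cluster 10 was lowest, with 0 UMIs in ICI 1 to 3, where 3 UMIs would have been 10.8 to 14.1 CPM, and 1 UMI in each of ICI 4 and isotype.

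**Figure D1:**
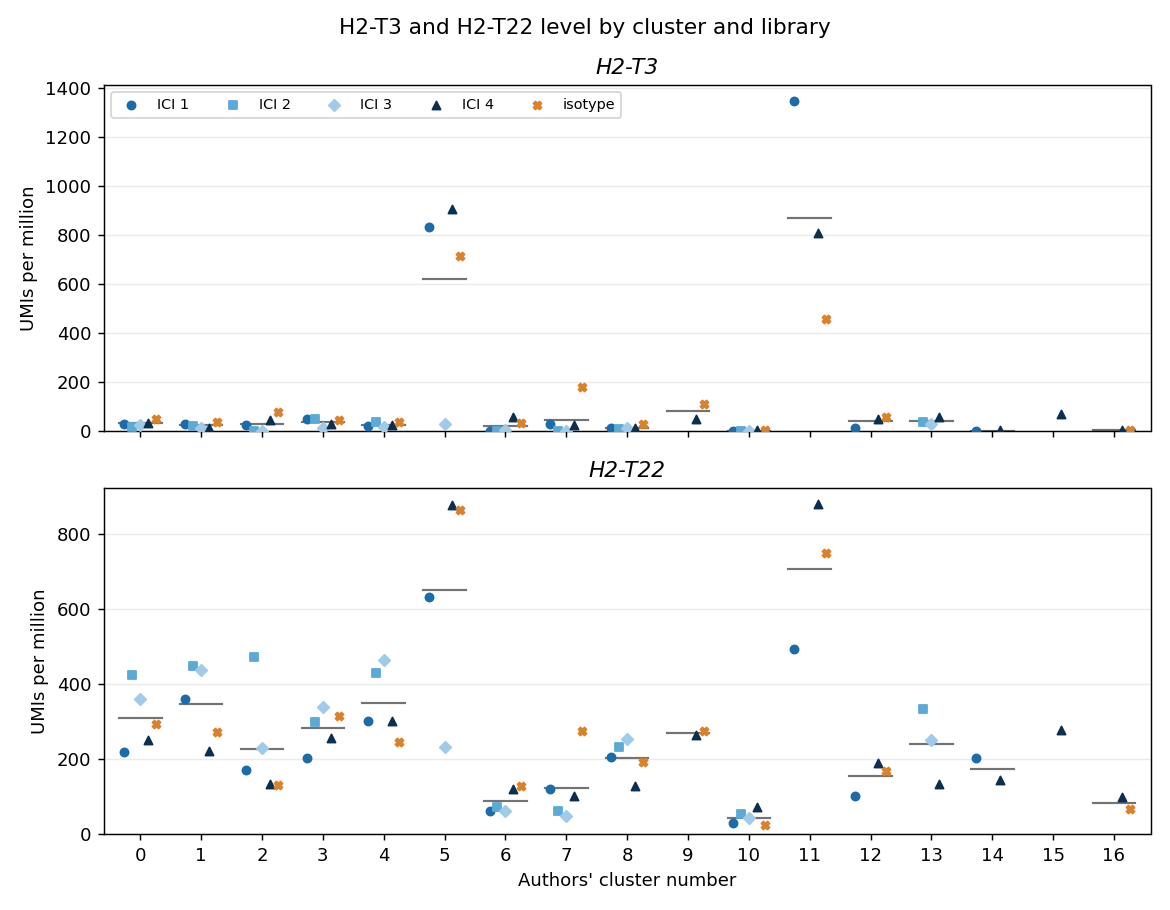
H2-T3 (top) and H2-T22 (bottom) in CPM for each of the authors' clusters, with 1 point per library holding at least 20 cells in the cluster and a grey line at the mean where 2 or more libraries have one. ICI 1, ICI 4 and isotype stand at 713 to 905 for H2-T3 in cluster 5 and at 456 to 1345 in cluster 11, and H2-T22 is raised in the same clusters over a wider base.

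The share of cells with at least 1 H2-T3 UMI in cluster 5 was 96.5% in ICI 4 (exact Clopper-Pearson 95% interval 94.6 to 97.9), 92.8% in isotype (87.5 to 96.4), 50.8% in ICI 1 (37.9 to 63.6) and 16.0% in ICI 3 (4.54 to 36.1). These intervals cover counting error only, and the median depth of the cells was 14788.5, 9503, 4893 and 1686 UMIs. With every cell thinned to 1000 UMIs, the shares were 57.0%, 46.4%, 33.9% and 0%. In B-like cluster 14, taken as a low reference, 2.74% of ICI 4 cells (0.334 to 9.55, median 5060 UMIs) and 0 of 61 ICI 1 cells (median 1170 UMIs, exact upper bound 5.87%) had a UMI. After thinning, 0% of both did.

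The libraries with high H2-T3 in cluster 5 were those with high Dntt, the terminal transferase of immature lymphocytes. Dntt stood at 625, 720 and 623 CPM in ICI 1, ICI 4 and isotype and at 13.5 and 5.14 in ICI 2 and ICI 3. Rag1 and Rag2, which cut receptor genes for recombination, and Ptcra, the pre-T receptor chain, had 0 UMIs in ICI 2 and ICI 3, where 3 UMIs would have been 20.2 and 15.4 CPM. Those 2 libraries had Ifng, the effector cytokine interferon-gamma, at 209 and 530 CPM in this cluster, against 12 UMIs in the 63 cells of ICI 1, 1.57 CPM in ICI 4 and 0 UMIs in isotype. The summed thymocyte markers were 283 and 411 CPM in ICI 2 and ICI 3, with 3 and 5 of 10 genes at 0, and 2549 to 2691 CPM in the other libraries with none at 0. The label of cycling thymocyte-like cells therefore held for cluster 5 in ICI 4 and isotype and went against the markers in ICI 2 and ICI 3. In ICI 1 it may hold for only part of the cells, as 35 of 63 had no Dntt UMI and effector markers were also found. Cluster 5 in isotype also held macrophage markers at a sum of 425 CPM with 0 of 9 at 0, against 5.02 to 20.6 CPM with 3 to 7 at 0 in the ICI libraries. Their part in the H2-T3 level was not tested, and leaving out cells with both T and myeloid transcripts gave 764 CPM for H2-T3 in isotype.

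From cell to cell the relation of H2-T3 with Dntt differed between libraries. In ICI 1, the 28 cluster 5 cells with a Dntt UMI had H2-T3 at 1240 CPM, and the 35 cells without had it at 145 CPM. Depth differed too, with a median of 9172.5 and 3642 UMIs per cell. In ICI 4, the 536 cells with Dntt stood at 909 CPM and the 10 cells without at 503. In cluster 2 of isotype, 60 cells with Dntt had H2-T3 at 188 CPM and 193 cells without had it at 25.8, at 3492.5 and 2392 UMIs per cell. In cluster 11 of isotype the values were 496 and 324 CPM in 123 and 45 cells. At an equal depth of 1000 UMIs, Dntt was found in 47.6% of cluster 5 cells with H2-T3 and 7.32% of those without in ICI 1. In ICI 4 these shares were 46.0% and 50.2%, and in isotype 42.3% and 52.4%, so that cells with H2-T3 had Dntt no more often there.

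**Figure D2:**
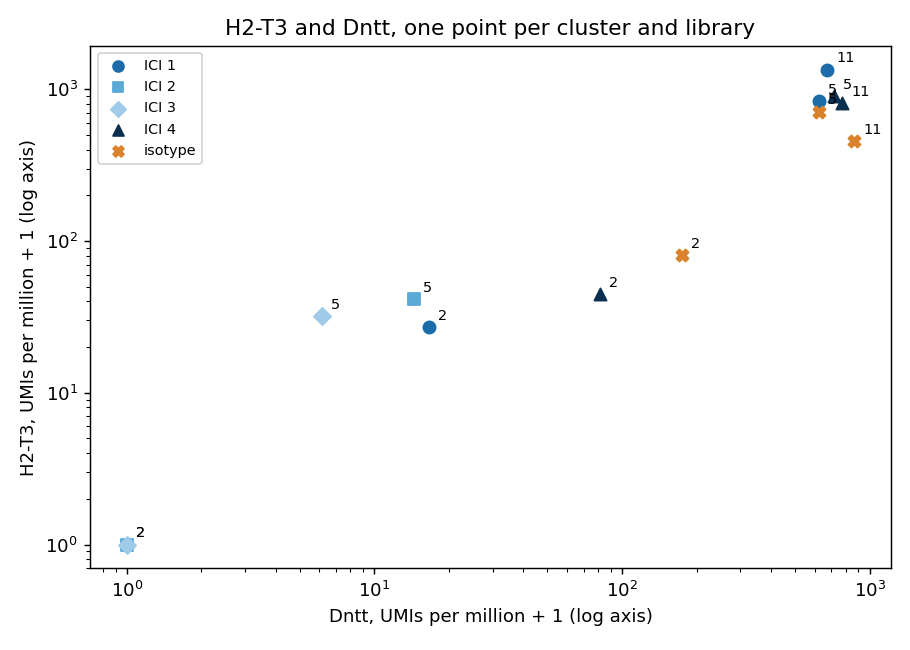
H2-T3 against Dntt, both as CPM plus 1 on log axes, with 1 point for each library in clusters 2, 5 and 11 (numbers beside the points) that held at least 18 cells. Clusters 5 and 11 of ICI 1, ICI 4 and isotype sit at the upper right, and cluster 5 of ICI 2 and ICI 3 sits with cluster 2, all at or below 79.7 CPM of H2-T3.

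H2-T3 was also read by cell cycle phase. By the authors' phase calls, cluster 5 had 777 CPM in S phase and 1053 in G2M phase in ICI 4, 536 and 873 in isotype, and 682 and 1104 in ICI 1. The G2M value was the higher in each of these 3 libraries, and in ICI 3 the values were 40.4 CPM in 15 S phase cells and 0 UMIs in 10 G2M cells. In cluster 11, cells called G1 had 750 CPM in ICI 4 and 426 in isotype. Isotype cells there called S (28) and G2M (14) had 530.0 and 661 CPM, although the cycling gene Mki67 had 2 UMIs in all 168 cells. In thinned cluster 5 cells of ICI 4, 63.7% of 311 cells with H2-T3 also had H2-T22 and 51.5% of 235 cells without did. In isotype these shares were 64.8% of 71 cells and 52.4% of 82 cells.

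H2-T22 had its highest means in clusters 11 and 5, which were its highest clusters in ICI 1, ICI 4 and isotype. In ICI 2 it was highest in cluster 2 (473 CPM) and in ICI 3 in cluster 4 (465 CPM). In cluster 5 it stood at 633 CPM in ICI 1, 877 in ICI 4 and 864 in isotype, with 231 in ICI 3 and 384 in the 18 cells of ICI 2, so that ICI 2 and ICI 3 were again the lowest. In cluster 11 it stood at 493, 880 and 749 CPM in ICI 1, ICI 4 and isotype. Unlike H2-T3, it was found across the T cell clusters, with means of 349 ± 94.2 CPM (SD, n = 5) in regulatory T-like cluster 4, 348 ± 99.5 in effector T-like cluster 1 and 310 ± 83.2 in naive CD4-like cluster 0. It was at 203 ± 47.1 CPM in natural killer-like cluster 8 and lower at 88.7 ± 32.0 CPM in gamma-delta or type 17-like cluster 6 and 44.4 ± 19.0 in cluster 10. Each cluster in this order overlapped with the next over libraries. The names of clusters 0 and 4 rest on all libraries together. Effector T cell markers in cluster 0 summed to 2519 and 3264 CPM in ICI 2 and ICI 3, against 16.4 to 108 in the others. In cluster 4 these sums were 1714 and 1554 CPM against 180 to 506. The part of such cells in the H2-T22 means was not tested.

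Cd1d1 was highest in clusters 11 and 2, and not in cluster 5. It stood at 89.7, 118 and 97.8 CPM in cluster 11 of ICI 1, ICI 4 and isotype, and at 72.9, 0, 91.8, 70.7 and 99.7 CPM in cluster 2 of ICI 1 to 4 and isotype. The ICI 1 value in cluster 11 rests on 2 UMIs, and the ICI 2 and ICI 3 values in cluster 2 on 0 and 2 UMIs. In cluster 5 it was at 15.4 to 25.1 CPM in 4 libraries, and in B-like cluster 14 it was at 7.79 and 24.5 in 2.

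The other 4 genes had other orders. H2-T23 was lowest on average in clusters 5 and 11, at 118 ± 49.9 CPM (SD, n = 4) and 138 ± 40.8 (n = 3). It was at 383 ± 53.6 (n = 2) in cluster 14 and 330 ± 68.9 (n = 5) in cluster 4. Cluster 14 had values only in ICI 1 and ICI 4, and within each of them cluster 4 was higher (441 against 421 CPM and 353 against 345). Cluster 5 was the lowest cluster for H2-T23 in ICI 1, ICI 4 and isotype. H2-Q4 had its highest means in cluster 13 (699 ± 421, n = 3), led by Itga1, and in cluster 4 (591 ± 192, n = 5). It stood at 227 ± 141 and 223 ± 123 in clusters 5 and 11. Cluster 13 had no isotype value, and was above cluster 4 in ICI 3 (1049 against 709 CPM). In ICI 2 (816 against 852) and ICI 4 (231 against 542) cluster 13 was below cluster 4. H2-Q7 was highest in cluster 1 (364 ± 71.9, n = 5) and lowest in cluster 11, at 0 UMIs in ICI 1 (3 UMIs would have been 134 CPM) and at 27.2 and 23.7 CPM in ICI 4 and isotype.

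H2-M3 was highest in cluster 14 (125 ± 22.1, n = 2) and macrophage-like cluster 7 (112 ± 51.0, n = 5) and lowest in cluster 5, at 12.3 CPM in ICI 4, 14.3 in isotype, 38.0 in ICI 1 and 82.3 in ICI 3. Most neighbours in these orders overlapped over libraries. The exceptions were clusters 8 over 16 and 16 over 14 for H2-T3, all under 28 CPM, and cluster 10 over cluster 11 for H2-Q7.

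**Figure D3:**
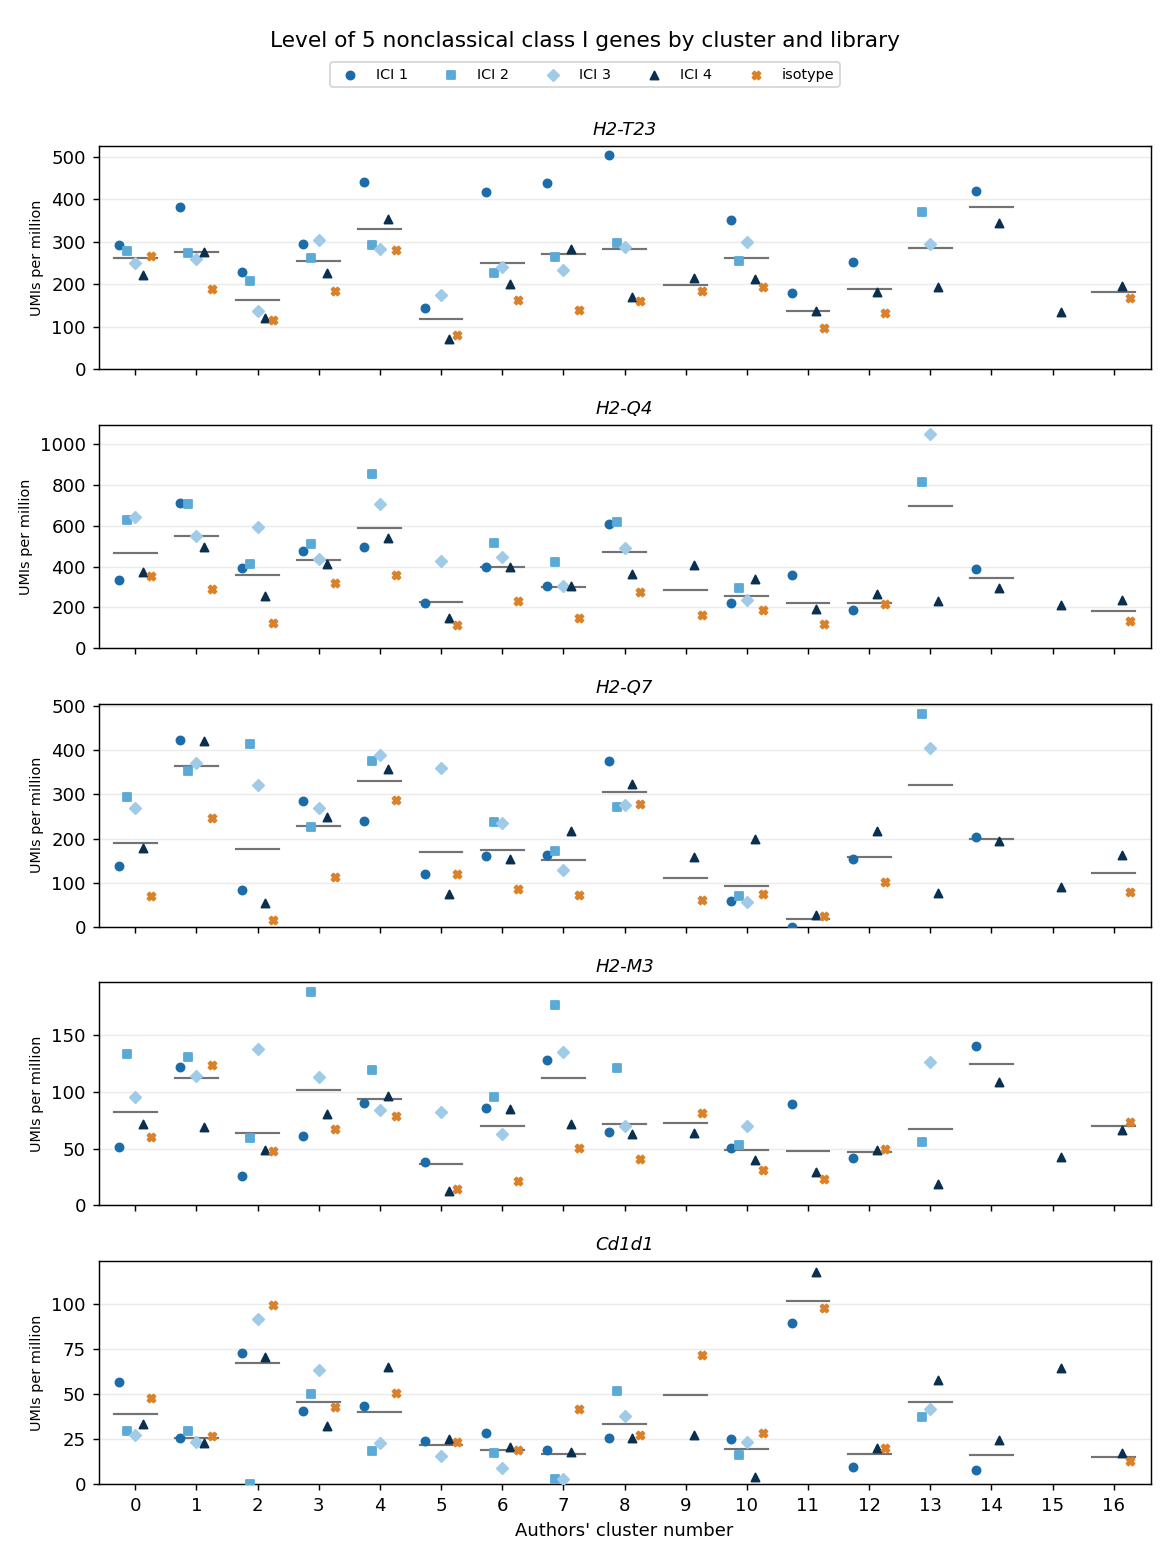
H2-T23, H2-Q4, H2-Q7, H2-M3 and Cd1d1 in CPM for each of the authors' clusters, with 1 point per library holding at least 20 cells and a grey line at the mean where 2 or more libraries have one. In cluster 5, H2-T23 and H2-M3 stand at their lowest cluster means, with ICI 3 above the other libraries, and Cd1d1 has its highest means in clusters 11 and 2.

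Across 16 clusters, each a mean over libraries, the pattern of H2-T3 was most like that of Desi1 (r = 0.95), Dck (0.94), Dntt (0.93), Syt13 (0.93) and Xrcc6 (0.92). Dck makes deoxynucleotides by salvage and Xrcc6 encodes the Ku70 protein of DNA end joining. These Pearson correlations of log2(CPM + 10) run over points that share libraries and were picked from 7090 genes, so they are descriptions. H2-T22 was most like Trat1 (0.89), a T cell receptor adaptor, and the receptor segments Trbv13-2 (0.88) and Trbv12-2 (0.87). H2-T23 was most like Stat6 (0.85), the transducer of interleukin 4 signals, Taz (0.84) and Uba7 (0.84), the activating enzyme for the interferon-induced modifier ISG15. H2-Q4 was most like Adcy7 (0.96), Trim14 (0.93) and Ly9 (0.93), and H2-Q7 was most like H2-K1 (0.91), Epsti1 (0.89) and Gng2 (0.89). H2-M3 was most like Trim26 (0.83), Pde4b (0.78) and Tor3a (0.78), and Cd1d1 was most like Tspyl4 (0.95), Tbcel (0.93) and Patj (0.92). Within ICI 1, ICI 4 and isotype taken singly, r was 0.83 to 0.92 for the 5 genes like H2-T3. It was as low as 0.12 for Cd1d1 with Tspyl4 and 0.28 for H2-M3 with Trim26 in ICI 1, and 0.14 for H2-T23 with Taz in isotype. Among the 7 genes, H2-T3 and H2-T22 had r = 0.77, H2-T22 and Cd1d1 0.63, H2-T23 and H2-M3 0.76, and H2-Q4 and H2-Q7 0.72, while H2-T3 and H2-T23 had r = -0.72.

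Near-identical copies limit what some counts can name. Of all 90-base runs in the GENCODE transcripts, 100% of those of H2-T3 and H2-M3 occur in no other gene, 96.3% of those of H2-Q4, 96.0% of H2-T23, 88.2% of H2-T22, 88.1% of Cd1d1 and 86.2% of H2-Q7. H2-T22 shares 9.49% with H2-T10 and Cd1d1 shares 11.9% with Cd1d2. Neither H2-T10 nor Cd1d2 was among the genes counted. Of 50-base runs, 65.5% were unique for H2-T22 (31.2% shared with H2-T10), 73.6% for H2-Q7 and 80.9% for Cd1d1. For H2-Q4 the 50-base share was 78.2%, and 94.5% in its first 500 bases. In the first 500 bases, which a 5′ library reads, 71.3% of 90-base H2-Q7 runs are unique to it. Of 50-base runs there, 55.5% are unique for H2-Q7 and 59.8% for H2-T22. Over its whole transcripts, H2-Q7 shares 90-base runs most with H2-Q10 (6.77%), H2-Q5 (4.18%) and H2-Q6 (3.68%). The mice were NOD and the build is of another strain. H2-Q6 stood at 1101 CPM in ICI 1 and at 164 to 293 in the other libraries, and H2-K1 at 1076 and 977 in ICI 2 and ICI 3 and at 122 to 207 in the others. The counts of H2-Q7, H2-T22 and Cd1d1 are therefore uncertain as to the copy, and the part of read assignment in these differences was not tested.

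The next comparison asked whether the genes differed with checkpoint inhibition over all cells of a library. H2-Q4 stood at 385, 558, 473 and 302 CPM in ICI 1 to 4 and at 176 in isotype. H2-Q7 stood at 194, 263, 262 and 176 CPM against 97.8, and H2-T23 at 324, 266, 254 and 177 CPM against 140. H2-M3 stood at 77.6, 125, 96.8 and 51.7 CPM against 43.5. All 4 ICI libraries were above isotype for these 4 genes, with ICI 4 the nearest. Of all 12659 genes tested, 27.3% were above isotype in every ICI library.

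Cd1d1 went the other way, at 33.0, 21.5, 19.2 and 34.2 CPM against 40.0, below isotype in every ICI library as were 19.1% of all genes. H2-T3 stood at 119, 12.2, 11.6 and 302 CPM against 247, and H2-T22 at 248, 248, 224 and 422 CPM against 378. For both, ICI 4 was above isotype and ICI 1 to 3 were below.

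None of the 7 passed edgeR's quasi-likelihood test over all cells, where 0 of 12659 genes (0%) did at a Benjamini-Hochberg adjusted p of 0.05. At an unadjusted p under 0.05 there were 516 genes, H2-Q4 and H2-Q7 among them, and DESeq2 called 38 genes with none of the 7. The log2 fold change of ICI over isotype was 1.18 for H2-Q4 (SE 0.41), 1.09 for H2-Q7 (SE 0.36), 0.90 for H2-M3 (SE 0.49) and 0.75 for H2-T23 (SE 0.35), each with an adjusted p of 0.817 by edgeR. It was -0.66 for Cd1d1 (SE 0.40) and -0.49 for H2-T22 (SE 0.46), also at an adjusted p of 0.817 by edgeR, and -1.20 for H2-T3 (SE 1.70, adjusted p = 0.840). In ICI 4 against isotype alone, the 2 libraries that stand apart from the rest, the values were 0.78, 0.84, 0.24, 0.33, -0.22, 0.16 and 0.29 in the same order, with no test. Without ICI 4, edgeR called 210 of 12503 genes (1.68%) and none of the 7.

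**Figure D4:**
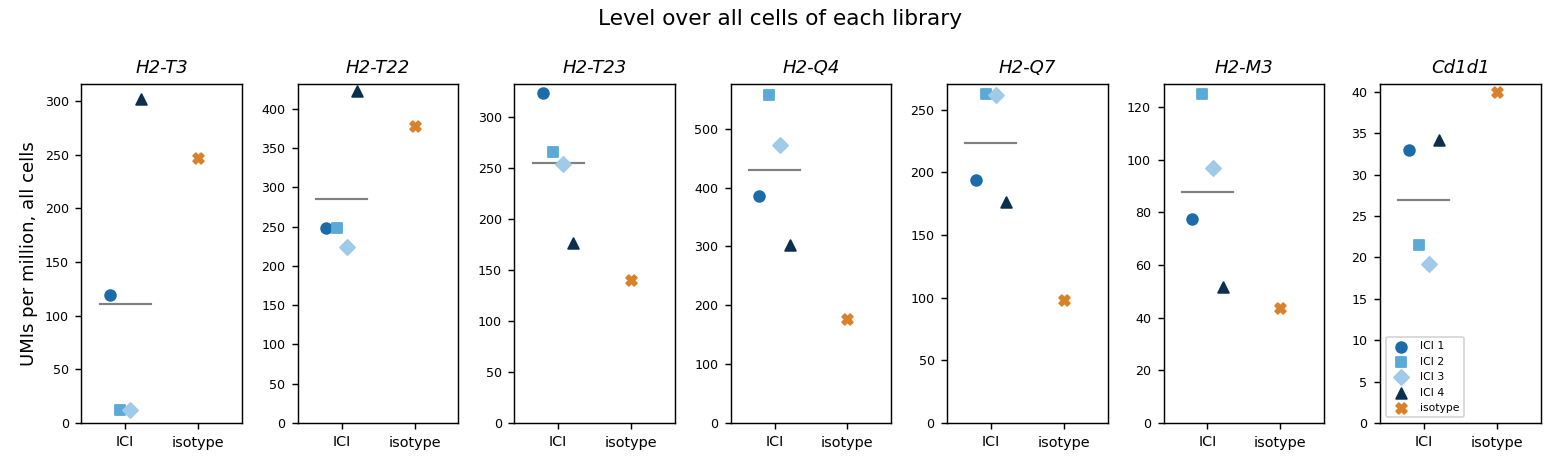
CPM over all cells of each library for the 7 genes, with 1 point per library and a grey line at the mean of the 4 ICI libraries, each axis starting at 0. H2-T23, H2-Q4, H2-Q7 and H2-M3 are above isotype in all 4 ICI libraries, Cd1d1 is below in all 4, and ICI 4 is above isotype for H2-T3 and H2-T22 with ICI 1 to 3 below.

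The libraries also differed in their mix of clusters, whose part in the levels over all cells was not tested beyond leaving out clusters 5 and 11. Clusters 5 and 11 together held 5.52%, 1.64%, 2.24% and 14.0% of cells in ICI 1 to 4 and 23.7% in isotype, and 11.8%, 3.89%, 4.51% and 31.0% of all UMIs against 28.2%. They carried 84.1%, 12.8%, 23.5% and 92.4% of all H2-T3 UMIs in ICI 1 to 4 and 76.9% in isotype. Outside them H2-T3 stood at 21.5, 11.1, 9.32 and 33.3 CPM in ICI and 79.3 in isotype, and its log2 fold change was -2.14 (SE 0.68, edgeR adjusted p = 0.762). Of the 2008 isotype UMIs of H2-T3, 1545 lay in clusters 5 and 11 and 284 in macrophage-like cluster 7. In cluster 7, 91 of 129 isotype cells also held T cell transcripts. The part of cluster 7 in the difference outside clusters 5 and 11 was not tested. For H2-T22 the share of UMIs in clusters 5 and 11 was 29.8%, 5.97%, 5.39% and 64.4% in ICI and 63.1% in isotype. Outside them it stood at 197, 242, 222 and 218 CPM against 194, and its log2 fold change turned to 0.07 (SE 0.25). The other 5 genes kept their direction, with log2 fold changes of 1.06 for H2-Q4, 1.21 for H2-Q7, 0.66 for H2-M3, 0.63 for H2-T23 and -0.69 for Cd1d1.

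Other genes of class I presentation were read by lists, none of whose genes passed edgeR's test over all cells. Of 17 tested genes for classical class I chains, B2m and peptide loading, 17 had a positive log2 fold change. The median was 0.73 against 0.02 over all genes. Against 27.3% of all genes tested, 15 of the 17 were above isotype in every ICI library. Among them were Nlrc5, the transactivator of class I genes (58.3 ± 11.9 CPM, SD, n = 4, against 17.8), the peptide transporter subunit Tap1 (177 ± 28.9 against 75.3), B2m (2036 ± 706 against 862) and H2-D1 (3557 ± 936 against 1630). Of 12 tested among 28 other nonclassical or class I-like genes, 7 were positive and 5 negative. Mr1, which shows vitamin B metabolites to mucosal T cells, stood at 9.37 ± 1.87 CPM against 15.0, below isotype in 4 of 4 libraries, and H2-T24 at 25.8 ± 9.19 against 15.7. Of 9 genes for CD1d lipid loading and trafficking, 6 were positive and 3 negative.

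The receptors of these molecules were also given as a list. Of 18 tested receptor and restricted T cell genes, 15 were positive and 3 negative, with a median of 0.91. Of the 18, 4 were above and 2 below isotype in every ICI library, as were 27.3% and 19.1% of all genes. Klrd1, the CD94 chain that binds H2-T23, stood at 74.6 ± 50.2 CPM (SD, n = 4) against 24.6, above in 4 of 4 libraries, and its partner Klrc1 at 65.4 ± 52.0 against 36.8, above in 2 of 4. Cd8a, whose homodimer binds H2-T3, stood at 213 ± 107 CPM against 530, below in 4 of 4. Zbtb16, the factor of natural killer T cells, stood at 22.2 ± 16.6 CPM against 6.27, and Trdc, the gamma-delta constant region, at 84.1 ± 32.4 against 72.4. Of 16 interferon signalling genes and class I regulators, 11 were positive and 5 negative. Irf1, an interferon-induced factor that acts on class I genes, stood at 224 ± 36.7 CPM against 175, above in 4 of 4 libraries.

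The last comparison took each cluster by itself. It covered 12 clusters and 75 pairs of a gene and a cluster, of which 0 passed edgeR's test, against 0.0615% of 82933 pairs over all genes. At an unadjusted p under 0.05 there were 14 of the 75 pairs, against 3381 of 82933 over all genes, and DESeq2 called 0 of 73. The log2 fold change was positive for H2-Q4 in 12 of 12 clusters (0.11 to 1.51), for H2-T23 in 11 of 12 (-0.11 to 1.12), for H2-Q7 in 10 of 11 (-0.04 to 3.30) and for H2-M3 in 9 of 12 (-0.34 to 1.72). H2-T22 was positive in 5 of 12 (-1.73 to 0.66), Cd1d1 in 2 of 8 (-2.05 to 0.20) and H2-T3 in 1 of 8 (-3.85 to 0.96). The clusters share libraries and are not replicates.

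**Figure D5:**
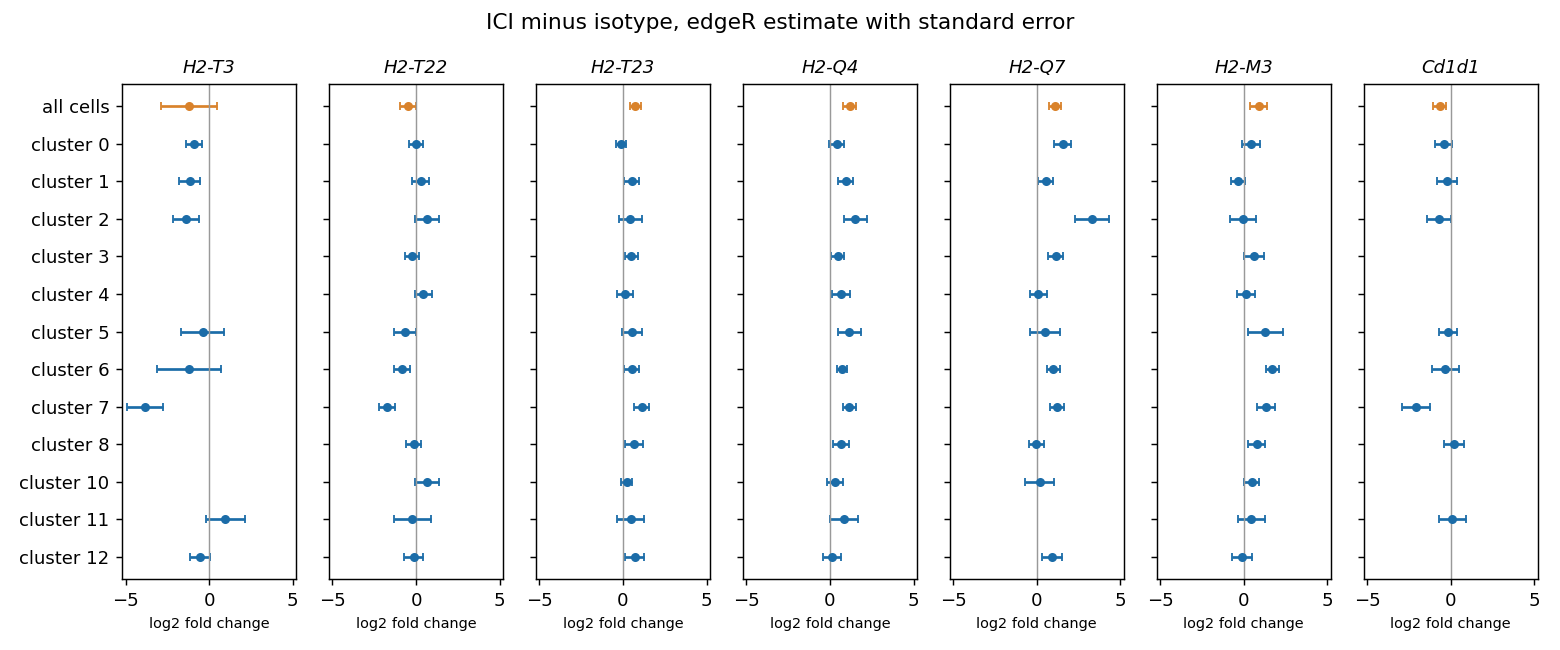
Log2 fold change of ICI over isotype by edgeR for each gene over all cells (orange) and in each tested cluster (blue), with bars of 1 standard error. H2-Q4 lies right of 0 in all 12 clusters, H2-T3 lies left of 0 in 7 of 8, and no value passes the adjusted threshold.

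In clusters 5 and 11 the differences of H2-T3 and H2-T22 were within their errors. In cluster 5, where ICI 1, ICI 3 and ICI 4 entered, H2-T3 differed by -0.38 (SE 1.30), H2-T22 by -0.66 (SE 0.67), H2-T23 by 0.54 (SE 0.57) and H2-Q4 by 1.16 (SE 0.70) on the log2 scale, each with an adjusted p of 1 by edgeR. In cluster 11, with ICI 1 and ICI 4, H2-T3 differed by 0.96 (SE 1.16) and H2-T22 by -0.21 (SE 1.08). In cluster 2, H2-Q7 stood at 83.3, 414, 321 and 53.2 CPM in ICI 1 to 4 and at 14.6 in isotype, a log2 fold change of 3.30 (SE 1.04, edgeR adjusted p = 0.9998), with 20 and 21 cells behind the ICI 2 and ICI 3 values. In those 2 libraries cluster 2 held effector T cell markers at sums of 2278 and 5413 CPM (2 and 1 of 8 at 0), against 23.9 to 104 in the others (3 to 5 at 0). Its thymocyte markers summed to 355 and 551 CPM (7 and 6 of 10 at 0), against 2193 to 3766 (0 to 3 at 0). The part of these cells in the H2-Q7 values was not tested.

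In macrophage-like cluster 7, all 7 genes had an unadjusted p under 0.05 and none an adjusted one, the lowest adjusted p by edgeR being 0.485. Of all 8997 genes tested there, 766 had an unadjusted p under 0.05 and 0 were called by edgeR, while DESeq2 called 32. H2-M3 stood at 128, 177, 135 and 71.4 CPM in ICI 1 to 4 against 50.4 in isotype, a log2 fold change of 1.34 (SE 0.52). H2-T23 stood at 439, 264, 233 and 284 against 140, H2-Q4 at 304, 423, 304 and 306 against 149, and H2-Q7 at 162, 172, 129 and 216 against 72.4. These 4 of 7 were above isotype in every ICI library, as were 19.6% of 8997 genes. H2-T3 stood at 28.3, 0 (3 UMIs would have been 4.21), 1.42 and 23.8 CPM against 179 and H2-T22 at 121, 61.7, 48.3 and 103 against 276, with log2 fold changes of -3.85 (SE 1.08) and -1.73 (SE 0.48). Cd1d1 stood at 18.9, 2.80, 2.84 and 17.9 CPM against 41.5. These 3 of 7 were below isotype in every ICI library, as were 23.6% of genes.

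Transcripts of T-lineage cells moved with the cluster 7 result. Of the 129 isotype cells of cluster 7, 91 held at least 2 UMIs of both T cell and myeloid genes. ICI 1 had 17 such cells among 104, ICI 2 had 7 among 181, ICI 3 had 5 among 162 and ICI 4 had 20 among 45. The summed thymocyte markers in cluster 7 were 1805 CPM in isotype with 0 of 10 at 0, and 35.1 to 573 CPM in the ICI libraries with 1 to 7 at 0. Without those cells, H2-T3 in isotype fell from 179 to 23.5 CPM and H2-T22 from 276 to 32.9 CPM. The log2 fold change of H2-T22 then turned from -1.73 to 1.09 (SE 0.64, edgeR adjusted p = 0.818), and H2-T3 and Cd1d1 no longer passed the filter on low counts. H2-Q4 went from 1.17 to 1.18 (SE 0.42), H2-M3 from 1.34 to 1.25 (SE 0.59), H2-T23 from 1.12 to 0.87 (SE 0.56) and H2-Q7 from 1.23 to 0.52 (SE 0.43).

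In gamma-delta or type 17-like cluster 6, where fibroblast markers were also raised (7 of 7), H2-M3 stood at 85.9, 95.7, 62.9 and 84.9 CPM in ICI 1 to 4 against 21.7 in isotype, a log2 fold change of 1.72 (SE 0.41, edgeR adjusted p = 0.681). H2-T23, H2-Q4, H2-Q7 and H2-M3 were above isotype in every ICI library, 4 of 7 against 29.7% of 7887 genes. H2-T22 was below in every ICI library, 1 of 7 against 19.3% of genes, at 63.0, 73.1, 60.9 and 119 CPM against 127. H2-T3 stood at 0 (3 UMIs would have been 17.2), 1.33, 2.95 and 57.3 CPM against 32.5, and the ICI 4 value came from 25 UMIs in 3 cells. Macrophage markers in cluster 6 summed to 1307 CPM in isotype and 686 in ICI 4 (5 and 6 of 9 at 0), against 17.7 to 74.5 in ICI 1 to 3 (3 to 4 at 0). Thymocyte markers summed to 1045 and 897 CPM (0 and 2 of 10 at 0) against 371 to 407 (5 to 6 at 0). Their part in these differences was not tested.

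ICI 4 decided the calls within clusters. Without it, 9 of 62 pairs passed edgeR's test, against 5.36% of 63394 pairs over all genes. In cluster 6, H2-T3, H2-T22, H2-Q4, H2-Q7 and H2-M3 passed, 5 of 7 genes against 17.3% of all genes, with log2 fold changes of -4.10, -1.19, 0.73, 1.12 and 1.61. In cluster 7, H2-T3, H2-T22 and H2-M3 passed, 3 of 7 against 7.35% of all genes, with -4.39, -1.88 and 1.53. In cluster 2, H2-Q7 passed, 1 of 6 against 1.89%, with 3.83. In that fit ICI 2 and ICI 3, which share barcodes, made up 2 of at most 3 ICI libraries. No fit without ICI 4 that also summed these 2 libraries was run, so the part of the shared barcodes in the 9 calls was not tested. The cluster 7 calls also kept the cells with both T cell and myeloid transcripts, 91 of 129 in isotype. With ICI 4 kept and those cells left out, H2-T22 turned positive and H2-T3 no longer passed the filter, as given above. No fit left out both, so the part of those cells in the cluster 7 calls was not tested.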

How the data were processed

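The deposited table holds whole-number UMI counts per gene and cell, made with Cell Ranger and Seurat on mouse build mm10, per the submitters' processing notes. Versions, filters and annotation are not given in the sources used here. The deposited cell table gives each cell's library, cluster, phase call, UMI count and mitochondrial percent (at most 25.0%), per the file headers. Doublets were not called; cells with at least 2 UMIs of T cell genes and 2 of myeloid genes were left out in an alternative.

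For each library, UMIs were added up over its cells, and again within clusters that had at least 20 cells in isotype and in 2 ICI libraries. edgeR 4.0.16 fitted quasi-likelihood models (TMM scaling, filterByExpr minimum count of 10, Benjamini-Hochberg adjustment over all genes tested, threshold 0.05). With 1 isotype library, the spread came from the ICI libraries and was taken to hold for isotype too. SEs were derived from the fold change and the F statistic. DESeq2 1.42.0 was an alternative. The fit was also run on simulated counts that gave isotype the same spread as ICI. That run therefore cannot show whether the spread holds for isotype. Cells under 1000 UMIs, 617 of 10275, were left out of thinned shares.

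The 7 genes, the lists and the markers were chosen with earlier results of these data known. Named genes were the 7, some list genes fixed by name, and the 5 (H2-T3) or 3 genes most like each in pattern among those at 50 CPM or more in a cluster. Cluster names rest on markers among the top 10 genes by fold or at 1.5-fold or more, with a pseudocount of 10 CPM.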

Additional observations from a re-analysis of the deposited data

Results flagged for a closer look

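In 7 of 70 sets of 4 ICI values, 1 library lay far from the others, with its gap to the nearest divided by the range of the 4 above the Dixon critical value (95% level). Chance flags about 1 in 20 such sets. For H2-T22 over all cells this ratio was 0.883, with ICI 4 at 422 CPM and the others at 224 to 248. For H2-T3 it was 0.949 in cluster 6, where ICI 4 stood at 57.3 CPM, and 1 in cluster 10, where 1 UMI in ICI 4 stood against 0 elsewhere. For H2-T23 in cluster 1 it was 0.859, with ICI 1 at 382 CPM and the others at 259 to 276. For H2-Q4 in cluster 7 it was 0.983, with ICI 2 at 423 CPM and the others at 304 to 306. For H2-Q7 in cluster 10 it was 0.904, with ICI 4 at 199.8 CPM and the others at 56.2 to 70.0. For H2-M3 in cluster 8 it was 0.886, with ICI 2 at 121 CPM and the others at 63.3 to 69.9.

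H2-T22 was above isotype in every ICI library in 3 clusters (2, 4 and 10) and below in 2 (6 and 7). Of all genes tested, 731 of 5859, 1336 of 4160 and 1535 of 5436 were above in clusters 2, 4 and 10. In clusters 6 and 7, 19.3% and 23.6% were below. These sides are by CPM. Of the 5 member genes tested in cluster 4 and the 5 in cluster 10, 4 were above isotype in every ICI library by CPM. With TMM scaling, 1 was in each cluster. In cluster 10, H2-T22 in ICI 1 (28.9 CPM, TMM factor 1.18) then lay below isotype (25.7 CPM, factor 0.842). The difference between clusters was not tested, and the cluster 7 value turned without cells holding both T cell and myeloid transcripts.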

How the results depend on the processing

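Over all cells, 0 of the 7 genes passed under each alternative with a test, 4 to 6 were above isotype in every ICI library used, and leaving out each ICI library gave 0 and 4. Within clusters, leaving out each ICI library gave 0 to 9 passing pairs (9 without ICI replicate 4), and every other alternative with a test gave 0. Over all cells, DESeq2 called 38 genes against 0 by edgeR. ICI 4 against isotype alone reversed H2-T3 (0.29) and H2-T22 (0.16), and leaving out clusters 5 and 11 reversed H2-T22 (0.0696). The log2 ratio of a gene's highest cluster to the next reversed in isotype alone for H2-T3 (-0.64), H2-T22 (-0.20), H2-Q7 (-0.22) and Cd1d1 (-0.0280). It also reversed with thinned cells for H2-T3 (-0.63), with a mean over cells for H2-Q4 (-0.0675) and H2-Q7 (-0.0107), and in ICI libraries alone for H2-M3 (-0.0367). The main ratio for H2-T3 was 0.49, and without ICI replicate 4 it was 0.78. The causes were not tested. Using no scaling factors, chosen after seeing the data like the summing or omission of ICI 2 and ICI 3, moved the median of all genes from 0.0153 to 0.115 on the log2 scale. No paired analysis was possible because there is 1 isotype library. Low counts limit H2-T3 outside clusters 5 and 11. They also limit Cd1d1, which had 146, 83 and 84 UMIs over all cells in ICI 1 to 3 and 325 in isotype. ICI 4 had 1105, though few in some clusters, such as cluster 10 (4.00 CPM).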
